A study of Rattus norvegicus with 27 samples.

Results

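The collagen genes described here are the 41 genes of the array annotation whose symbol is Col, a number, a and a number, out of 14217 genes with a probe set of their own. Their transcripts were measured in parotid acinar cells, the secretory cells of this serous gland, captured with a laser from sections of untreated Sprague Dawley rats. The 27 arrays cover 9 ages, 3 arrays each: E18 and E20 before birth, P0 at birth, then P2 and P5, P9 and P15, and P20 with P25, counted in days. According to the methods, the samples of an age came from different litters, and halved heads were sectioned up to P5 but dissected glands from P9. The ages are grouped by the study's 4 stages: stage 1 is E18, E20 and P0 (9 arrays), stage 2 is P2 and P5, stage 3 is P9 and P15, and stage 4 is P20 and P25 (6 arrays each). The study drew these limits on the same arrays, so a contrast of stages is no independent evidence for them. Where a gene had several probe sets (14 of the 41), the brightest by its mean over the 27 arrays was taken. The 41 genes divide into 8 fibrillar, 7 cartilage-type, 5 basement membrane, 5 beaded filament, 5 basement membrane zone and network, 6 fibril-associated and 4 transmembrane collagens, plus Col26a1. Col4a3 and Col21a1 had no probe set of their own and were not analysed here.

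Collagens are triple helices of 3 alpha chains, and each gene encodes 1 kind of chain. Types I, III and V assemble into the banded fibrils of connective tissue and are made mainly by fibroblasts. Type IV forms the sheet-like network of the basement membrane on which the epithelial cells of a salivary acinus rest, while types VI, XII and XIV decorate or link the fibrils around it. Types II, IX, X and XI are known above all from cartilage. In the developing salivary gland collagen lies at the clefts between the epithelial buds and around the ducts. A level here is a value of robust multi-array average (RMA) on the log2 scale, on which 1 unit is a doubling. Each probe set binds its target in its own way, so levels are compared between ages and never between genes.

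Acinar markers were lower in stage 1 than later. Their mean level over 8 measured genes, among them the salivary protein genes Bpifa2 and Amy1, was 4.09 to 6.85 in stage 1 and 12.70 to 13.02 in stage 4. Markers of other cell types stood out in some arrays. The mean of 8 cartilage markers was 8.59 in E18 replicate 1 and 4.60 to 6.10 in the other 26 arrays. The mean of 6 bone markers was 9.41 in P9 replicate 2, 9.38 in E20 replicate 1, 7.96 in E18 replicate 1, 7.57 in P9 replicate 3 and 7.06 in P2 replicate 1, against 4.10 to 5.80 in the other 22. The mean of 14 fibroblast markers was 7.52 to 8.59 in stage 1, 8.33 to 9.17 in stage 2, 7.76 to 8.10 in stage 3 and 7.06 to 7.77 in stage 4. No marker of these lists is a collagen. Skeletal muscle markers, a mean of 9 genes, were high in more arrays. They were at 5.93 to 12.23 in stage 1 and 5.41 to 11.14 in stage 2. In stage 3 they were at 4.55 to 12.22 and in stage 4 at 5.08 to 8.80. Epidermal markers, a mean of 5 genes, reached 12.46 in stage 1 and 12.45 in stage 2, and at most 6.63 and 5.81 in stages 3 and 4. In captured tissue, fewer cells of a type and less RNA per cell cannot be told apart, and this holds for every change below.

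The upstream sequences of 4 changing members and of the shared region of Col4a2 and Col4a1 are shown because the results turn on these genes. They come from RefSeq promoters of rat build GRCr8, which held 32 of the 41 genes. They are written 5′ to 3′ on the strand of the gene (for Col4a2 and Col4a1 on the plus strand), and end at the base before the annotated start, or for Col1a2 further upstream. Capitals mark the letters CCAAT, or TATAA as in a TATA box, or GGGCGG as in a GC box, on either strand.
Col1a2, chr4:33518307-33518416, plus strand: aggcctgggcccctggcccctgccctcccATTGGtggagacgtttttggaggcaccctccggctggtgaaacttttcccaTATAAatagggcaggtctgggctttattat
Col5a2, chr9:55090152-55090401, minus strand: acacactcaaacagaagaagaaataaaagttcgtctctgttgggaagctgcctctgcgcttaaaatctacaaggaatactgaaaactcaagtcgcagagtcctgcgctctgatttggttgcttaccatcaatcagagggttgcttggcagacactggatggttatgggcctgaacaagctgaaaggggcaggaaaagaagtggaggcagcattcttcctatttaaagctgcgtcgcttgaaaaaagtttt
Col9a1, chr9:34081114-34081363, plus strand: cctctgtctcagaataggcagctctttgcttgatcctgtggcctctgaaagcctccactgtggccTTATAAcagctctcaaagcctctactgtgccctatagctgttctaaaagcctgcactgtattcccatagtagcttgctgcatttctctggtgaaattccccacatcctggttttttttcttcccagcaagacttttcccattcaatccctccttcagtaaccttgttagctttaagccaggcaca
Col15a1, chr5:66297296-66297545, plus strand: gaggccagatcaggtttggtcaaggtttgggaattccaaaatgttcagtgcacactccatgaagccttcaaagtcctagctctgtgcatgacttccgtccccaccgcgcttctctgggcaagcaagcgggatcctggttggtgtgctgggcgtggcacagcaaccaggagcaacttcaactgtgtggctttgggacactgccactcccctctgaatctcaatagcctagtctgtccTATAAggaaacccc
Col4a2 and Col4a1, chr16:84885521-84885596, between starts that point away from each other: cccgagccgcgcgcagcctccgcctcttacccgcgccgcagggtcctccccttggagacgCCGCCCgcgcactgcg

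In Col1a2 the letters CCAAT lay on the opposite strand 221 bases before the start and TATAA 170 bases before it. In Col15a1 TATAA lay 14 bases before the start. In Col9a1 TATAA was found on both strands, overlapping at 185 and 184 bases before the start, and in Col5a2 none of the 3 motifs was found. The Col4a2 and Col4a1 starts are 76 bases apart, and the bases between them hold GGGCGG on the minus strand. Over the 250 bases upstream of the start, 18 of the 32 collagen promoters (56.2%) held GGGCGG, beside 30.5% of all 33469 promoters in the table. CCAAT was in 9 (28.1%, beside 34.0%) and TATAA in 7 (21.9%, beside 24%). A match is a string of letters and no evidence of binding.

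In all 14 collagens fell from P9 and P15 to P20 and P25, while Col2a1, Col9a1 and Col9a2 fell and Col15a1 rose between stages 1 and 2. Over the 9 ages 24 of the 41 genes passed the moderated F test, beside 24.5% of all 31042 probe sets tested. Tests here are those of limma with Benjamini-Hochberg adjusted p below 0.05 over all probe sets, and changes are in log2 units ± SE. From stage 1 to stage 2 only Col15a1 rose, with 1.63% of all probe sets called higher, and Col2a1, Col9a1 and Col9a2 fell, with 1.33% of all called lower. From stage 2 to stage 3, where 0.76% of all probe sets were called, limma called none of the 41. Without adjustment 9 of the 41 had a p below 0.05, and the share of all probe sets at that level was not counted. From stage 3 to stage 4, 14 fell, where 4.27% of all probe sets were called lower, and none rose, where 4.09% were called higher. Their median change was -0.76 over the 41 genes and 0.09 over all probe sets. From stage 1 to stage 4, 25 fell and 5 rose, beside 17.8% and 27.2% of all probe sets. This contrast shares its stage 4 arrays with the one before. Over that span all probe sets together shifted by a median of 0.19, so changes between stages 1 and 4 are given relative to it, with the adjusted p-value of the change before this correction. Quantile normalisation ended 6 calls of that contrast, those of Col3a1, Col4a1, Col4a4, Col6a2, Col8a1 and Col16a1 (adjusted p 0.0504 to 0.202).

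**Figure D1:**
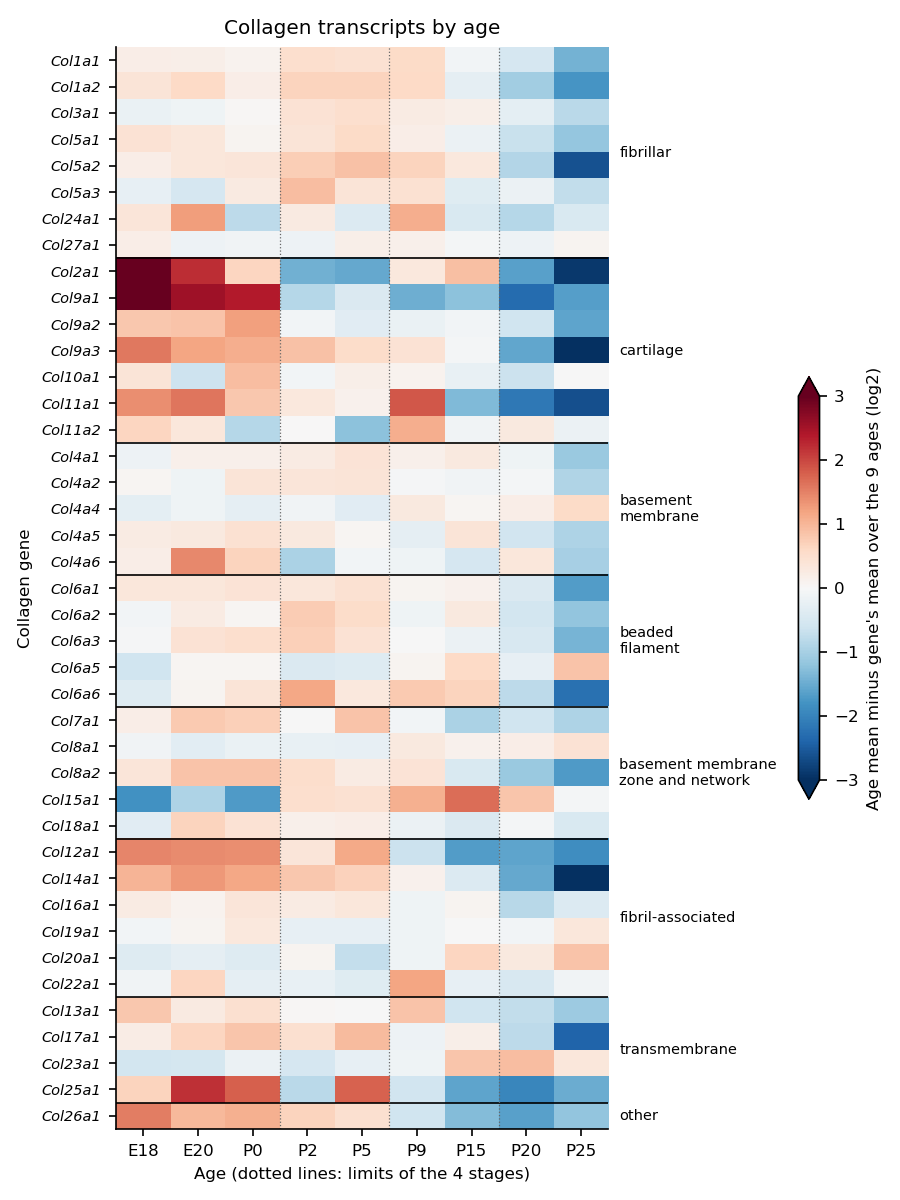
Mean level of each of the 41 collagen genes at each age minus the gene's own mean over the 9 ages (log2, colour, with values beyond 3 units at the end colours), by structural group and age. The columns P20 and P25 are blue in most rows, Col2a1 and Col9a1 are red up to P0, and Col15a1 is blue up to P0.

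The type I chains, the bulk of fibrous connective tissue, both fell from stage 3 to stage 4. Col1a2 ranged over 11.82 to 13.64 (median 12.45) in stage 1, 12.29 to 13.26 (median 12.76) in stage 2, 11.55 to 13.51 (median 12.12) in stage 3 and 9.72 to 11.31 (median 10.86) in stage 4. Stages 3 and 4 did not overlap, and the change of -1.56 ± 0.29 (adjusted p = 0.00182) is 2.95-fold. The age means were 11.83 ± 0.29 at P15, 11.07 ± 0.25 at P20 and 10.33 ± 0.59 at P25 (SD, n = 3). Col1a1, the partner chain of the same molecule, ranged over 12.64 to 13.84 (median 13.19) in stage 1, 13.11 to 13.82 (median 13.49) in stage 2, 12.70 to 13.97 (median 13.21) in stage 3 and 10.89 to 12.53 (median 12.22) in stage 4. All stage 4 arrays lay below all stage 3 arrays, with a change of -1.20 ± 0.23 (adjusted p = 0.00173). Col3a1, which joins type I in pliable tissue, fell as well, at -0.76 ± 0.19 (adjusted p = 0.0138), with stage 3 at 13.10 to 13.36 (median 13.16) and stage 4 at 11.70 to 12.76 (median 12.57).

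Type V initiates fibrils and sets their width. Col5a2 ranged over 10.12 to 11.69 (median 11.04) in stage 1, 11.16 to 12.22 (median 11.31) in stage 2, 10.79 to 11.66 (median 11.16) in stage 3 and 7.23 to 10.02 (median 9.22) in stage 4. The first 3 stages overlap, and every stage 4 array is below them. Its change from stage 3 to stage 4 was -2.23 ± 0.30 (adjusted p = 4.79e-05), 4.69-fold, and its level at P25 was 8.06 ± 0.96, beside 9.77 ± 0.38 at P20 (SD, n = 3). Col5a1, which shares the type V molecule, fell as well, at -0.92 ± 0.26 (adjusted p = 0.0291), and the call was lost when any of 6 single arrays (P9 replicate 2, P15 replicates 1 and 3, P20 replicate 2, P25 replicates 2 and 3) was left out (adjusted p 0.0528 to 0.0842). Col5a3, a rarer type V chain, passed the F test, with its highest age mean at P2, 8.78 ± 0.69, and 7.12 ± 0.32 at P25, but no stage contrast. The other fibrillar members, Col24a1 and Col27a1, passed none of the tests. Col27a1 was at 5.71 to 6.73 (median 5.96) in stage 1 and 5.62 to 6.43 (median 5.99) in stage 4. Col24a1 was at 2.26 to 8.07 (median 3.53) in stage 1 and 2.95 to 3.46 (median 3.17) in stage 4. So 5 of the 8 fibrillar genes fell from stage 3 to stage 4, and the 8 changes were all negative with a median of -0.96.

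The fibroblast marker level moved with these falls. From stage 3 to stage 4, 5 of its 14 genes fell and none rose, beside 4.27% and 4.09% of all probe sets. The changes of the 14 were negative for 10 and positive for 4. Of the 14, 4 (Dcn, Lum, Postn and Fap) are themselves matrix genes of the lists given further on. Another, Fbn1, encodes fibrillin-1, a matrix protein that the study places in 1 late-falling cluster with Col1a1, Col1a2 and Col5a2. Part of this marker level is thus matrix expression. With the fibroblast marker level as a covariate, 10 of the 14 collagen calls from stage 3 to stage 4 were lost. How many calls were lost among all probe sets was not counted, so the loss cannot be read as particular to collagens. Errors were wider for some genes, such as Col2a1 (SE 0.69 after 0.53), and narrower for others, such as Col1a1 (0.22 after 0.23). Col5a2 fell by 1.60 ± 0.31 (adjusted p = 0.00546) in that fit, while Col1a2 was at -0.80 ± 0.27 (adjusted p = 0.119) and Col1a1 at -0.65 ± 0.22 (adjusted p = 0.116). Col3a1 was at -0.29 ± 0.17 (adjusted p = 0.421) and Col5a1 at -0.27 ± 0.24 (adjusted p = 0.609). Other lost calls kept more of their change under a wider error. Col4a1 was at -0.93 ± 0.31 (adjusted p = 0.115), Col17a1 at -1.41 ± 0.46 (adjusted p = 0.109), Col14a1 at -1.72 ± 0.49 (adjusted p = 0.0611) and Col6a1 at -0.91 ± 0.28 (adjusted p = 0.0912). Col8a2 was at -1.09 ± 0.55 (adjusted p = 0.321) and Col11a1 at -1.62 ± 0.89 (adjusted p = 0.371). The calls that passed there were those of Col5a2, Col6a6, Col2a1 and Col9a3.

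**Figure D2:**
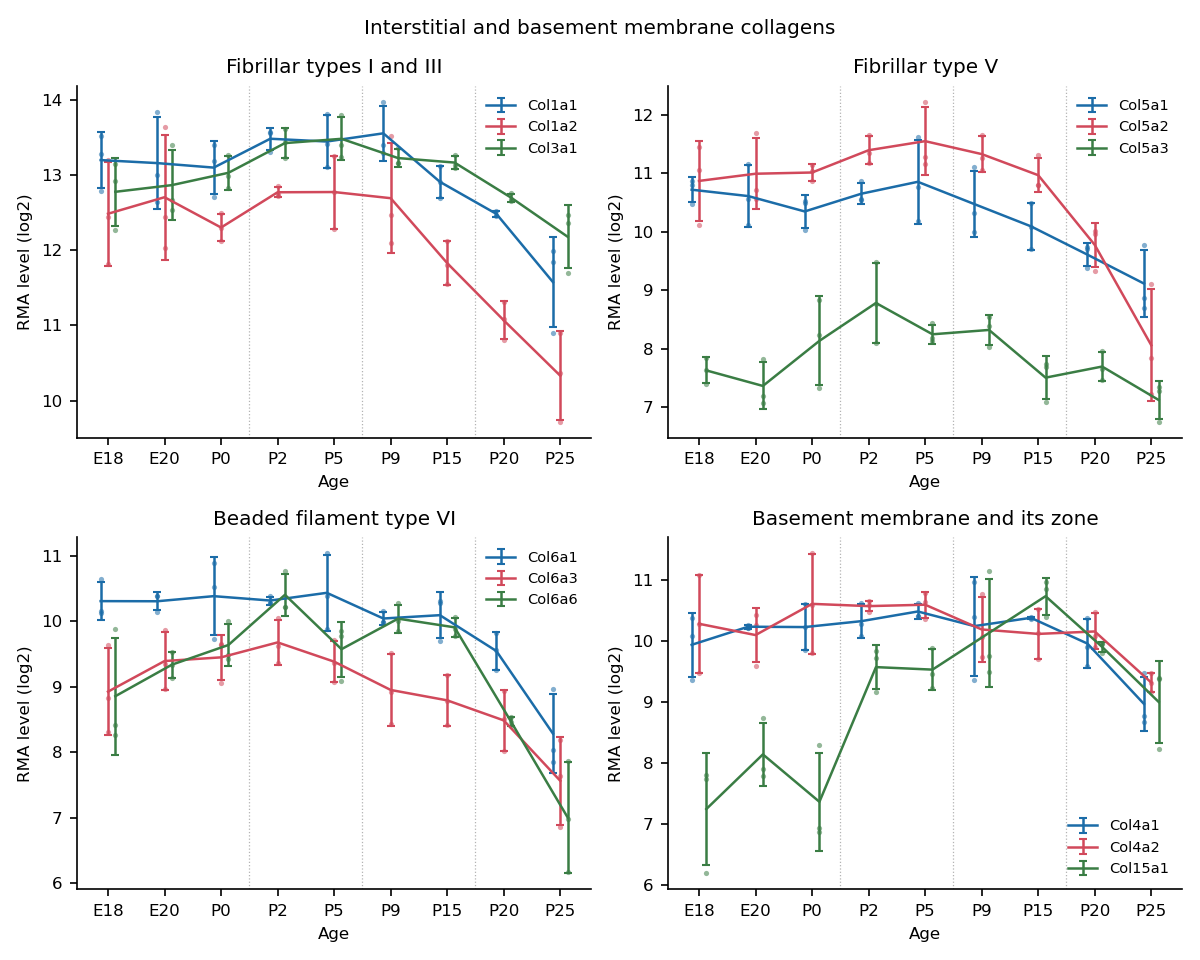
Level (RMA, log2) of 12 collagens by age, as single arrays (points) and age means with SD (lines and bars, n = 3), with dotted lines at the limits of the stages. Levels of the fibrillar and type VI members are lowest at P25, and Col15a1 is near 7 to 8 up to P0 and above 9 in the mean of P2 to P20.

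Of the 7 cartilage-type genes 3 fell from stage 1 to stage 2 and 3 from stage 3 to stage 4. Col2a1, the chain of the main cartilage fibril, ranged over 7.82 to 12.91 (median 10.24) in stage 1, 5.24 to 7.59 (median 6.76) in stage 2, 7.54 to 10.68 (median 8.58) in stage 3 and 4.75 to 7.23 (median 5.82) in stage 4. Stage 2 lay wholly below stage 1, at -3.58 ± 0.48 (adjusted p = 0.000121), or 12-fold lower. Its age means then stood higher again at P9 (8.37 ± 0.72) and P15 (8.97 ± 1.59) than at P5 (6.54 ± 0.95; SD, n = 3), a difference between stages that did not pass, 2.10 ± 0.53 (adjusted p = 0.0665). Into stage 4 it fell by 2.87 ± 0.53 (adjusted p = 0.00146). Col9a1, a chain of the type IX collagen that coats cartilage fibrils, ranged over 9.09 to 11.71 (median 9.73) in stage 1, 5.65 to 7.49 (median 6.62) in stage 2, 4.85 to 6.82 (median 5.71) in stage 3 and 4.03 to 7.26 (median 4.97) in stage 4. The 9 arrays up to P0 were all above the 18 later ones, and the change to stage 2 was -3.28 ± 0.43 (adjusted p = 9.17e-05). That drop fell between P0 (9.58 ± 0.27) and P2 (6.35 ± 0.61).

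Col9a3, another chain of type IX, was not called from stage 1 to stage 2, at -0.57 ± 0.39 (adjusted p = 0.577). It ranged over 9.86 to 12.15 (median 10.42) in stage 1, 9.38 to 10.38 (median 9.85) in stage 2, 8.67 to 10.23 (median 9.29) in stage 3 and 4.08 to 8.57 (median 6.60) in stage 4. Stages 1 to 3 overlap, and stage 4 lies below each of them. The change from stage 3 to stage 4 was -3.02 ± 0.43 (adjusted p = 0.000109), or 8.1-fold, and the age mean at P25 was 5.04 ± 1.36. Col9a2 fell already from stage 1 to stage 2, -1.17 ± 0.31 (adjusted p = 0.0397), though the groups overlapped, at 7.39 to 9.95 (median 8.82) and 7.11 to 8.63 (median 7.57), and the call was lost on leaving out any of 12 single arrays (E18 replicate 2, E20 replicates 2 and 3, P2 replicates 1 and 2, P20 replicate 3, and each array of P0 and P5; adjusted p 0.0503 to 0.123). Col11a1, a chain of the thin fibril core, from stage 3 to stage 4 fell by 2.64 ± 0.74 (adjusted p = 0.0292), but its stages overlapped, at 5.28 to 10.51 (median 7.26) and 3.55 to 7.12 (median 4.21). That call was lost without any of 7 single arrays (P9 replicate 2, P15 replicates 1 and 3, P20 replicates 2 and 3, P25 replicates 1 and 2; adjusted p 0.0559 to 0.0819). Col10a1, the collagen of hypertrophic cartilage, and Col11a2 passed no test. Col10a1 was at 6.55 in E18 replicate 1 and had stage medians of 3.06, 3.63, 3.52 and 3.14. Col11a2 had its highest value, 8.98, in E18 replicate 1 as well.

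The 7 cartilage-type genes were all highest in E18 replicate 1, the array in which cartilage markers stood out. There Acan was at 10.52, Hapln1 at 10.90, Matn1 at 11.46 and Cnmd at 8.92, and the next highest arrays had 6.30, 6.91, 8.0 and 5.18. Ucma (10.06) and Comp (5.80) were also highest there, while Chad was highest in P20 replicate 2 (6.47) and Snorc in P25 replicate 1 (8.35). Without that array the changes of Col2a1 and Col9a1 from stage 1 to stage 2 were -3.34 ± 0.47 (adjusted p = 0.000218) and -3.03 ± 0.40 (adjusted p = 0.000119). With the cartilage marker level, whose spread lies mostly in that array, as a covariate they were -3.29 ± 0.46 (adjusted p = 0.000239) and -3.02 ± 0.41 (adjusted p = 0.000188). P15 replicate 2 held the highest Col2a1 level after birth, 10.68, and was also second in Matn1 (8.0) and Cnmd (5.18). Without it Col2a1 from stage 3 to stage 4 fell by 2.44 ± 0.50 (adjusted p = 0.00497). Col11a1 was highest in E18 replicate 1 (10.91), E20 replicate 1 (10.87) and P9 replicate 2 (10.51), 3 of the arrays high in bone markers. With the bone marker level as a covariate its change from stage 3 to stage 4 was -2.11 ± 0.65 (adjusted p = 0.0561).

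**Figure D3:**
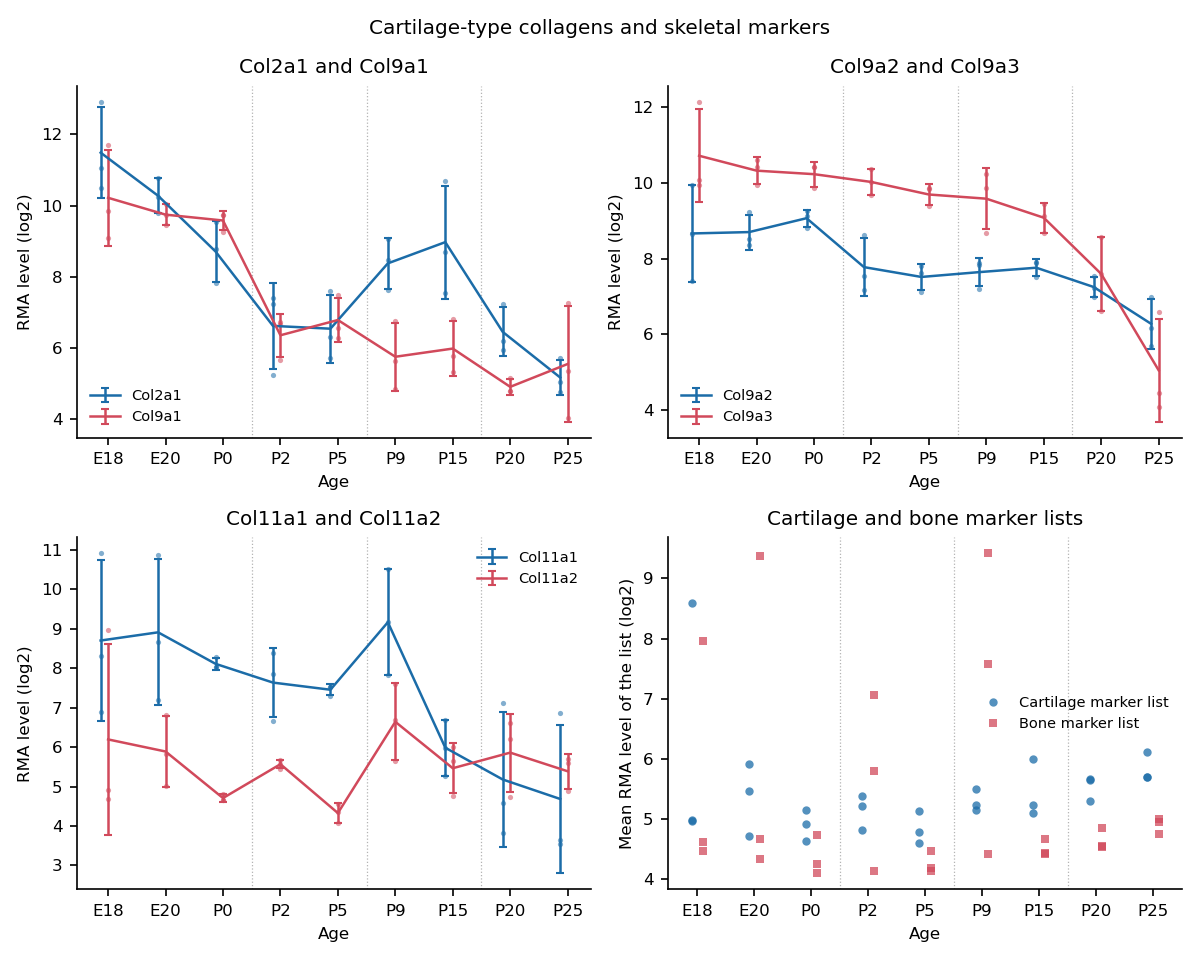
Level (RMA, log2) of Col2a1, Col9a1, Col9a2, Col9a3, Col11a1 and Col11a2 by age, with single arrays as points and age means with SD as lines (n = 3), and the mean level of the cartilage and bone marker lists in each array. Col9a1 drops between P0 and P2 and Col9a3 after P15, while the cartilage list stands out only in E18 replicate 1, at 8.59.

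Of the 5 basement membrane genes Col4a1 alone fell from stage 3 to stage 4. Col4a1, which with Col4a2 makes the type IV molecule of most basement membranes, ranged over 9.35 to 10.60 (median 10.21) in stage 1, 10.07 to 10.63 (median 10.41) in stage 2, 9.36 to 10.97 (median 10.39) in stage 3 and 8.67 to 10.38 (median 9.53) in stage 4. The stages overlap, and the change from stage 3 to stage 4 was -0.85 ± 0.24 (adjusted p = 0.0306), a call lost on leaving out any of 9 single arrays (P9 replicates 2 and 3, each array of P15, P20 replicates 2 and 3, P25 replicates 1 and 3; adjusted p 0.0548 to 0.0877). Col4a2, at 9.70 to 10.78 (median 10.09) in stage 3 and 9.16 to 10.48 (median 9.69) in stage 4, passed no test, with -0.42 ± 0.28 (adjusted p = 0.365). Without the 4 arrays highest in bone markers, a choice made after seeing the data, Col4a1 was at -0.41 ± 0.23 (adjusted p = 0.319), and with the bone marker level as a covariate at -0.80 ± 0.25 (adjusted p = 0.0584). Both chains were lowest at P25 in their age means, 8.97 ± 0.44 for Col4a1 and 9.32 ± 0.16 for Col4a2 (SD, n = 3). A second Col4a1 probe set had age means of 9.61 at P9, 10.03 at P15, 9.73 at P20 and 8.53 at P25.

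Of the stage contrasts, only that of stages 1 and 4 called Col4a5 and Col4a4, which are minor type IV chains. Col4a5 ranged over 5.87 to 7.22 (median 6.27) in stage 1, 5.54 to 6.85 (median 6.43) in stage 2, 5.80 to 6.97 (median 5.92) in stage 3 and 4.23 to 6.68 (median 5.32) in stage 4, and relative to the median of all probe sets it fell by 1.27 ± 0.32 from stage 1 to stage 4 (adjusted p = 0.0105). Col4a4 went the other way by 0.42 ± 0.19 (adjusted p = 0.012), from 3.37 to 4.35 (median 3.88) in stage 1 through 3.45 to 4.41 (median 3.74) and 3.69 to 4.83 (median 4.15) to 4.22 to 4.93 (median 4.33) in stage 4. These levels are low, and that p-value is of the change before the correction, 0.62. The Col4a4 call was lost with quantile normalisation and with the fibroblast level as a covariate. Col4a6, whose gene is a neighbour of Col4a5, passed no test and reached 8.10 in P20 replicate 1, where the other arrays of stage 4 were at 4.05 or lower.

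Type XV, which lies between basement membrane and fibrils, rose from stage 1 to stage 2. Col15a1 ranged over 6.19 to 8.73 (median 7.78) in stage 1, 9.16 to 9.89 (median 9.59) in stage 2, 9.50 to 11.15 (median 10.62) in stage 3 and 8.22 to 9.96 (median 9.60) in stage 4. All arrays of stage 2 were above all of stage 1, and the rise of 1.97 ± 0.31 (adjusted p = 0.000582) is 3.92-fold. The mean was highest at P15, 10.73 ± 0.30, and 9.00 ± 0.67 at P25 (SD, n = 3). Relative to the median of all probe sets, stage 4 was above stage 1 by 1.68 ± 0.31 (adjusted p = 7.47e-05), though the groups overlapped through P25 replicate 3 at 8.22. The related Col18a1, which carries the endostatin fragment, passed no test, at 7.89 to 9.57 (median 8.62) in stage 1 and 7.46 to 8.65 (median 8.27) in stage 4. Several marker lists were also higher in stage 2. The pericyte and smooth muscle list went from 6.84 to 7.80 in stage 1 to 7.82 to 8.21 in stage 2, and the myoepithelial and basal list from 7.04 to 8.50 to 8.59 to 9.63, both without overlap. The adipocyte, endothelial and fibroblast lists overlapped, with medians of 8.17 after 5.02, 7.46 after 6.69 and 8.54 after 8.02. With the fibroblast level as a covariate the rise was 2.03 ± 0.43 (adjusted p = 0.0244), and the part of the other lists was not tested.

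Among the network and anchoring types, Col8a2, found in endothelial and corneal matrices, ranged over 6.13 to 8.75 (median 7.23) in stage 1, 6.65 to 7.23 (median 6.96) in stage 2, 5.74 to 8.19 (median 6.39) in stage 3 and 4.39 to 6.19 (median 5.11) in stage 4. Into stage 4 it fell by 1.39 ± 0.43 (adjusted p = 0.0485) with overlapping groups, and the call was lost on leaving out any of 19 single arrays (adjusted p 0.0524 to 0.12), that is, all but E18 replicates 1 and 3, E20 replicate 3, P0 replicates 1 and 2, P9 replicate 3, P20 replicate 2 and P25 replicate 2. Its partner Col8a1 was higher in stage 4 than in stage 1 by 0.34 ± 0.21 relative to the median of all probe sets. The change before that correction, 0.53, had an adjusted p = 0.0459. That call was lost without any of 13 single arrays (E18 replicate 2, E20 replicate 1, P5 replicate 3, P9 replicate 2, P20 replicate 2, P25 replicates 2 and 3, and each array of P0 and P15, adjusted p 0.051 to 0.153). It was also lost in 10 of 13 other settings, among them arrays centred on their medians and each of the marker covariates. Col7a1, which builds the anchoring fibrils beneath stratified epithelia, ranged over 5.25 to 8.11 (median 6.82) in stage 1, 5.75 to 8.87 (median 6.17) in stage 2, 4.67 to 6.35 (median 5.78) in stage 3 and 4.65 to 6.12 (median 5.42) in stage 4. It fell by 1.52 ± 0.43 over stages 1 to 4 on the same scale (adjusted p = 0.0168), and without P20 replicate 3 the adjusted p was 0.0581. Before the correction for the median the change was -1.33 ± 0.43. It was -0.93 ± 0.39 (adjusted p = 0.0656) without E18 replicate 1 and E20 replicate 1, the stage 1 arrays with the highest epidermal marker levels (12.46 and 11.98), and -0.93 ± 0.41 (adjusted p = 0.0802) also without P9 replicates 2 and 3. With the fibroblast level as a covariate it was -0.22 ± 0.52 (adjusted p = 0.787) and with the skeletal muscle level -1.09 ± 0.45 (adjusted p = 0.0616). Its highest array was P5 replicate 2, which also held the second highest epidermal marker level, a mean of 12.45 over 5 genes.

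Type VI forms the beaded filaments around cells. Col6a6 had the steepest fall into stage 4 of this group and ranged over 8.26 to 10.01 (median 9.43) in stage 1, 9.09 to 10.78 (median 10.04) in stage 2, 9.78 to 10.28 (median 9.94) in stage 3 and 6.16 to 8.54 (median 8.13) in stage 4. Stages 2 and 3 overlap almost wholly and stage 4 lies below both, with a change from stage 3 of -2.24 ± 0.27 (adjusted p = 1.48e-05), 4.74-fold. Col6a1 ranged over 9.73 to 10.90 (median 10.39) in stage 1, 9.88 to 11.04 (median 10.34) in stage 2, 9.70 to 10.31 (median 10.07) in stage 3 and 7.85 to 9.83 (median 9.11) in stage 4. Its change of -1.15 ± 0.23 (adjusted p = 0.00279) came with groups that overlap, since the highest stage 4 array, at 9.83, was above the lowest of stage 3. Col6a3 ranged over 8.31 to 9.86 (median 9.35) in stage 1, 9.08 to 10.05 (median 9.49) in stage 2, 8.41 to 9.51 (median 8.85) in stage 3 and 6.86 to 8.94 (median 8.10) in stage 4. Its change from stage 3, -0.85 ± 0.27 (adjusted p = 0.0586), did not pass, and neither did that of Col6a2, -0.95 ± 0.32 (adjusted p = 0.0664). Over stages 1 to 4 the brightest probe sets of both fell, relative to the median of all probe sets. The changes were -1.43 ± 0.25 for Col6a3 (adjusted p = 0.000591) and -1.14 ± 0.29 for Col6a2 (adjusted p = 0.0121, and 0.0501 without P25 replicate 3). A second Col6a2 probe set had age means of 7.28, 7.68 and 6.95 at E18, E20 and P0, and 7.15 and 7.09 at P20 and P25. The second Col6a3 probe set was at 9.04, 9.03 and 8.86, then 8.43 and 7.88, at those ages. Col6a5 passed no test, at 3.73 to 6.01 (median 4.27) in stage 1 and 4.11 to 6.12 (median 4.97) in stage 4.

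The fibril-associated types XII and XIV, which sit on the surface of type I fibrils, both fell from stage 1 to stage 4, and Col14a1 also from stage 3 to stage 4. Col14a1 ranged over 10.98 to 11.42 (median 11.29) in stage 1, 10.48 to 11.23 (median 10.84) in stage 2, 9.45 to 10.46 (median 10.04) in stage 3 and 4.88 to 9.54 (median 8.04) in stage 4. Each later stage had a lower median. The change from stage 3 to stage 4 was -2.20 ± 0.40 (adjusted p = 0.00131), with 1 array of stage 4 within the range of stage 3. Col12a1 ranged over 8.20 to 10.25 (median 9.10) in stage 1, 7.21 to 9.82 (median 8.45) in stage 2, 5.12 to 8.18 (median 6.27) in stage 3 and 5.67 to 6.78 (median 5.88) in stage 4. From stage 2 to stage 3 it changed by -1.92 ± 0.46 (adjusted p = 0.0563), short of the threshold and across the change from heads to glands. Over stages 1 to 4 it fell by 3.35 ± 0.42 relative to the median of all probe sets (adjusted p = 6.89e-06), with no overlap. Another of its probe sets was at -1.47 ± 0.46 (adjusted p = 0.136) from stage 2 to 3 and -2.12 ± 0.46 (adjusted p = 0.00577) from stage 3 to 4, where the brightest had -0.56 ± 0.46 (adjusted p = 0.478).

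Of the other fibril-associated genes, Col20a1 was low and rose. It ranged over 4.46 to 5.73 (median 5.05) in stage 1, 4.24 to 5.63 (median 5.25) in stage 2, 5.22 to 6.48 (median 5.51) in stage 3 and 5.38 to 6.53 (median 6.15) in stage 4, and stage 4 was above stage 1 by 0.73 ± 0.19 relative to the median of all probe sets (adjusted p = 0.000768). Col16a1 fell by 1.05 ± 0.25 on that scale (adjusted p = 0.00972). Col19a1 and Col22a1 passed no test and had medians below 4 in every stage, where a change would be hard to see on these arrays. Col22a1, known from muscle-tendon junctions, reached 7.11 in P9 replicate 2 and 5.88 in E20 replicate 1. Their skeletal muscle marker means were 9.57 and 12.23, the latter the highest of the 27 arrays, and their bone marker means were 9.41 and 9.38. P9 replicate 3 and E18 replicate 1 had skeletal muscle means of 12.22 and 12.21, and there Col22a1 was at most 4.47 and 4.36. The part of muscle or bone in these values was not tested.

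Transmembrane collagens are single-pass proteins with a collagenous outer part. Col17a1, a hemidesmosome protein of basal epithelial cells, ranged over 7.87 to 9.74 (median 9.20) in stage 1, 8.65 to 9.73 (median 9.19) in stage 2, 8.16 to 9.36 (median 8.33) in stage 3 and 4.79 to 8.45 (median 7.02) in stage 4. Between stages 3 and 4 it fell by 1.61 ± 0.36 (adjusted p = 0.00719), with overlapping groups and a P25 mean of 6.07 ± 1.25. The list of 5 myoepithelial and basal cell markers moved alongside, at 8.49 to 9.13 in stage 3 and 6.78 to 8.06 in stage 4, with 3 of its genes falling; its part in the change of Col17a1 was not tested. Col25a1, first known from neurons, ranged over 3.04 to 9.01 (median 7.0) in stage 1, 3.35 to 9.03 (median 5.53) in stage 2, 2.51 to 6.78 (median 3.76) in stage 3 and 3.18 to 4.06 (median 3.51) in stage 4. Single arrays spread over several units up to P9, and the change over stages 1 to 4 was -3.46 ± 0.72 relative to the median of all probe sets (adjusted p = 0.00119). On that scale Col13a1 fell by 1.62 ± 0.41 (adjusted p = 0.00843).

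Col23a1 ranged over 5.38 to 7.07 (median 6.47) in stage 1, 5.71 to 7.04 (median 6.47) in stage 2, 6.34 to 7.96 (median 7.09) in stage 3 and 6.31 to 8.27 (median 7.39) in stage 4, and rose over stages 1 to 4 by 0.85 ± 0.29 relative to the median of all probe sets (adjusted p = 0.00666). Col26a1, which belongs to none of these groups, ranged over 4.78 to 8.33 (median 6.96) in stage 1, 4.54 to 7.68 (median 5.66) in stage 2, 4.08 to 5.29 (median 4.36) in stage 3 and 3.34 to 4.58 (median 4.0) in stage 4. Its stage 4 arrays were all below those of stage 1, with a change of -2.78 ± 0.52 on the same scale (adjusted p = 0.000497).

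Steps between adjacent ages placed few of these changes. Over the 8 steps 0.199% of all tests passed. Among the collagens only Col9a1 from P0 to P2, -3.23 ± 0.67 (adjusted p = 0.0497), and Col9a3 from P20 to P25 passed, the latter at -2.65 ± 0.61 relative to the median of all probe sets, which moved by 0.10 (adjusted p = 0.0475). Both calls rest on 3 arrays an age, and neither passed with a replicate block, the fibroblast level or the skeletal muscle level in the fit. In addition, leaving out any of 14 single arrays left no step called (E20 replicates 2 and 3, P0 replicates 1 and 3, P2 replicates 1 and 2, P20 replicates 1 and 3, and each array of P5 and P15).

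The contrasts of stage 3 with stage 2 and of stage 4 with stage 1 cross from head to gland sections, and there preparation and age cannot be told apart. Slopes per day were therefore fitted within E18 to P5 and within P9 to P25. In the head series Col15a1 rose by 0.27 ± 0.048 (adjusted p = 0.00241) log2 units a day, beside 1.54% of all probe sets with a rising slope. Col2a1 and Col9a1 fell, at -0.60 ± 0.076 (adjusted p = 5.35e-05) and -0.46 ± 0.068 (adjusted p = 0.000348) a day, beside 1.08% falling. In the gland series 15 of the 41 fell, beside 5.02% of all probe sets, and none rose, beside 5.31%. The steepest were Col9a3 at -0.28 ± 0.036 (adjusted p = 2.99e-05), Col11a1 at -0.27 ± 0.062 (adjusted p = 0.00693) and Col2a1 at -0.22 ± 0.045 (adjusted p = 0.00254) a day, followed by Col5a2 at -0.20 ± 0.025 (adjusted p = 1.54e-05) and Col14a1 at -0.20 ± 0.034 (adjusted p = 0.00046). All of these values come from gland sections.

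The difference between both slopes passed for 8 genes. It was negative for 6, beside 1.78% of all probe sets, and positive for 2, beside 1.06%. Col15a1 went from rising to a gland slope of -0.077 ± 0.028 (adjusted p = 0.0879), a difference of -0.35 ± 0.056 (adjusted p = 0.000949). For Col6a6 the difference was -0.30 ± 0.045 (adjusted p = 0.000486), for Col5a2 -0.28 ± 0.049 (adjusted p = 0.00188) and for Col3a1 -0.16 ± 0.031 (adjusted p = 0.00659). Col5a3 and Col1a1 were the other negative members, at -0.18 ± 0.041 (adjusted p = 0.019) and -0.16 ± 0.038 (adjusted p = 0.0234). Col9a1 and Col2a1 were less steep in the gland series than in the heads, by 0.43 ± 0.079 (adjusted p = 0.00367) and 0.38 ± 0.088 (adjusted p = 0.0201) a day.

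**Figure D4:**
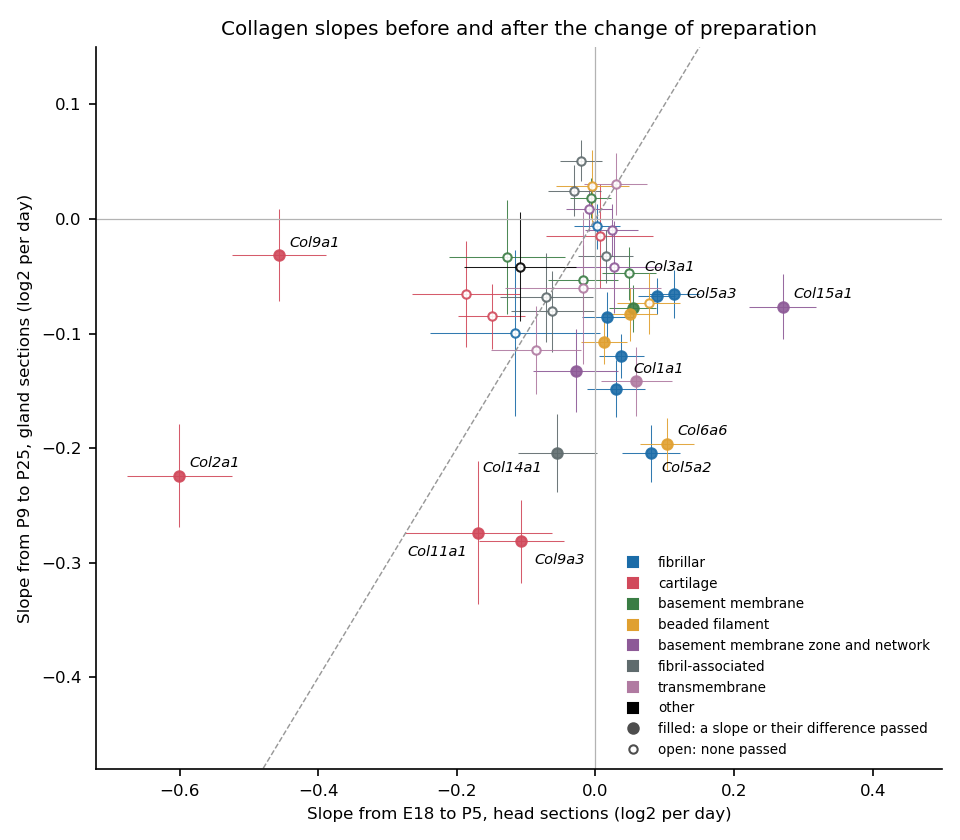
Slope of each of the 41 collagen genes over E18 to P5 (head sections, x axis) and over P9 to P25 (gland sections, y axis), in log2 units per day with SE bars, coloured by structural group, with equal slopes on the dashed line. Col2a1 and Col9a1 lie far to the left, Col15a1 to the right, and the 15 genes that fell in the gland series lie below the horizontal line.

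Chains of 1 molecule did not always change alike. The difference in change between chain partners was tested by permuting stage labels over the arrays (exact, two-sided), for 10 pairs in both contrasts within a preparation, with adjustment over these 20 comparisons. Permuting in this way treats the arrays of a stage as interchangeable, although they come from different ages. The pairs were chosen with the values known. From stage 1 to stage 2 Col9a1 fell further than Col9a2, by -2.11 ± 0.35 (exact permutation p = 2e-04, adjusted p = 0.002), and further than Col9a3, by -2.71 ± 0.26 (exact permutation p = 2e-04, adjusted p = 0.002), the smallest p that 5005 permutations can give. From stage 3 to stage 4 Col9a3 fell further than Col9a2, with a difference of 2.08 ± 0.67 (exact permutation p = 0.00649, adjusted p = 0.0324). With the brightest probe sets Col5a2 fell further than Col5a1 there, with 1.31 ± 0.47 (exact permutation p = 0.00216, adjusted p = 0.0144). That difference rests on the probe sets chosen, since it was 0.48 ± 0.21 (exact permutation p = 0.0628) with the other Col5a2 probe set, 0.80 ± 0.38 (exact permutation p = 0.0368) with the other Col5a1 probe set and -0.02 ± 0.25 (exact permutation p = 0.929) with both others, unadjusted. The type I chains differed by 0.36 ± 0.14 (exact permutation p = 0.0173, adjusted p = 0.0692) and Col4a1 and Col4a2 by -0.43 ± 0.27 (exact permutation p = 0.141, adjusted p = 0.235), neither past the threshold. The other comparisons did not pass. Col9a1, Col9a2 and Col9a3 had 1 probe set each, so their differences could not be checked against other probe sets.

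The further probe sets of 14 genes, 17 in all, gave a check on the choice of the brightest. From stage 3 to stage 4, 7 of the 17 were called in the direction of the brightest probe set, 6 were called by neither, 3 only by the brightest and 1 only by the other. A second Col14a1 probe set gave -2.67 ± 0.22 (adjusted p = 5.28e-08) and a second Col5a2 probe set -1.41 ± 0.26 (adjusted p = 0.00148). From stage 1 to stage 2 the second Col15a1 probe set gave 2.03 ± 0.35 (adjusted p = 0.00163) and the second Col2a1 probe set -3.11 ± 0.38 (adjusted p = 4.08e-05). That Col2a1 probe set also rose from stage 2 to stage 3, by 1.81 ± 0.42 (adjusted p = 0.0454), where the brightest did not pass. The last Col2a1 probe set, dim at a mean of 4.39, was not called into stage 4, at 0.03 ± 0.57 (adjusted p = 0.983). Between stages 1 and 4, 13 of the 17 were called in the direction of the brightest probe set, 2 only by the brightest, 1 only by the other and 1 by neither.

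Genes that make, assemble and remove collagen were counted in 5 lists, with the share of all probe sets as given above for each contrast. Of 19 measured genes for collagen modification and folding in the endoplasmic reticulum, 3 fell and 3 rose from stage 3 to stage 4. The falling ones were the prolyl hydroxylase gene P3h3 at -1.30 ± 0.24 (adjusted p = 0.00127), the collagen chaperone gene Serpinh1 at -1.10 ± 0.23 (adjusted p = 0.00369) and Fkbp10 at -1.19 ± 0.31 (adjusted p = 0.0203). The rising ones were P4hb, which encodes protein disulfide isomerase, at 1.08 ± 0.14 (adjusted p = 2.61e-05), with Creb3l1 and Mia3. From stage 1 to stage 2, 4 genes of this list fell (P4ha1, Plod1, Plod2 and P3h4) and Creb3l1 rose. Of 7 processing and cross-linking genes Tgm2, a transglutaminase, alone fell from stage 3 to stage 4, at -0.94 ± 0.26 (adjusted p = 0.0257), and the lysyl oxidase gene Lox had -1.10 ± 0.56 (adjusted p = 0.228).

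Fibril partners are the proteins that bind and space the fibrils. From stage 3 to stage 4, 7 of 12 fell and none rose, with a median change of -1.05. Tgfbi, a collagen-binding matrix protein, was at 9.57 to 10.34 (median 10.02) in stage 3 and 6.72 to 9.24 (median 8.34) in stage 4, and fell by 1.82 ± 0.28 (adjusted p = 0.000265). Postn, which links collagen to its cross-linking enzymes, fell by 1.43 ± 0.23 (adjusted p = 0.00049), and Fbln1 and Sparc fell too, at -1.44 ± 0.31 (adjusted p = 0.00534) and -0.83 ± 0.21 (adjusted p = 0.0177). From stage 1 to stage 2 Fmod, a small proteoglycan on fibrils, rose by 1.83 ± 0.50 (adjusted p = 0.0469). Of 12 genes for collagen breakdown 3 fell from stage 3 to stage 4, the membrane protease gene Mmp16 at -2.47 ± 0.38 (adjusted p = 0.000248), the inhibitor gene Timp2 at -1.14 ± 0.22 (adjusted p = 0.002) and Fap at -1.29 ± 0.27 (adjusted p = 0.00482). Mmp14 had -0.84 ± 0.30 (adjusted p = 0.083). Of 5 measured collagen receptors Ddr2, a receptor kinase for fibrillar collagen, fell by 1.34 ± 0.33 (adjusted p = 0.0127), while the epithelial Ddr1 had 0.48 ± 0.24 (adjusted p = 0.225).

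**Figure D5:**
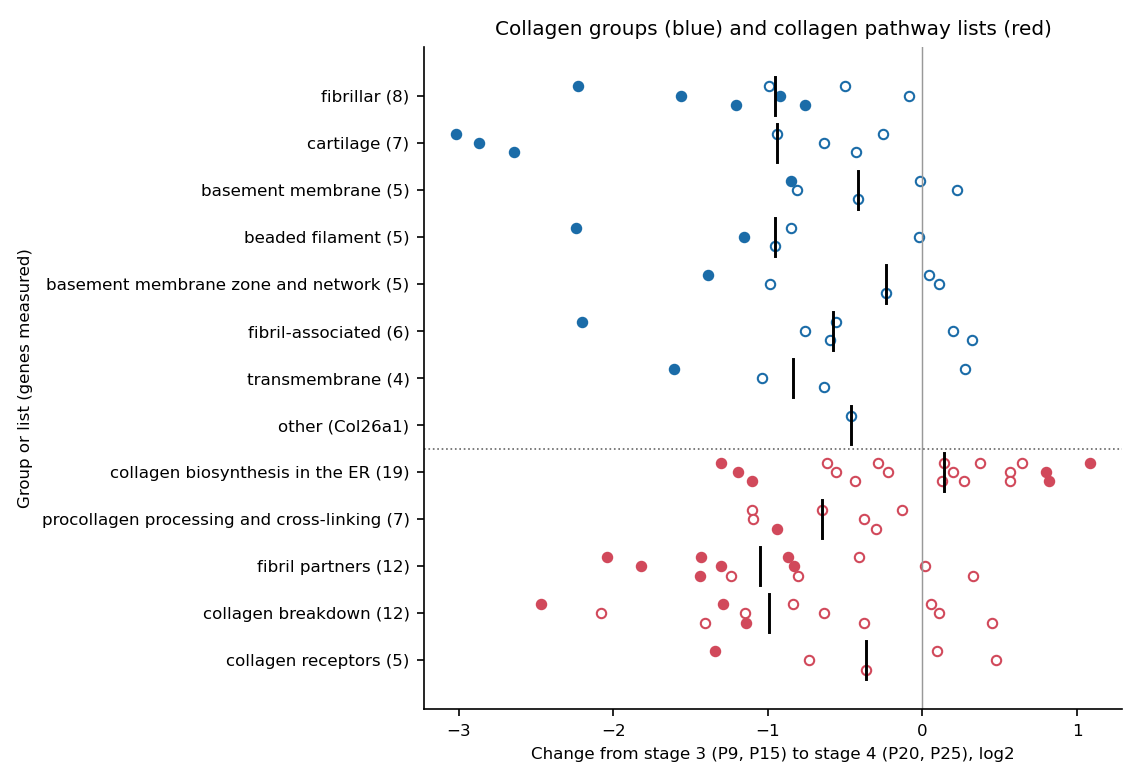
Change from stage 3 to stage 4 (log2, x axis) of each gene of the collagen groups (blue) and of 5 lists of collagen pathway genes (red), filled where the adjusted p was below 0.05 and with the median of each group as a bar. The filled points of the collagen groups all lie below 0, while the list for the endoplasmic reticulum has 3 on each side.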

How the data were processed

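RNA of laser-captured acinar cells was amplified and hybridised to 27 Affymetrix Rat 230 2.0 arrays, 3 at each of 9 ages. The authors deposited log2 values normalised by robust multi-array average (RMA), 1 value per probe set and array, between 1.43 and 14.63. From these, 31042 probe sets were tested after 57 control probe sets were left out. Of them 20826 had 1 gene symbol (14217 genes), 436 had several and 9780 had none. limma 3.58.1 in R 4.3.3 fitted 1 coefficient per age, with 18 residual degrees of freedom. Stage contrasts, steps between ages, slopes per day (birth as day 22) and an F test over the 9 ages were taken from that fit, two-sided, with Benjamini-Hochberg adjustment over all probe sets and a threshold of 0.05. The procedure was tested on simulated data. Replicate arrays correlated at 0.873 to 0.962, no 2 arrays were identical, and precision is limited by how few arrays each age has. Amplification from little RNA can add spread to weak probe sets.

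The members and gene lists were chosen with earlier results of these data known. Values are given for each member that passed the F test or a stage contrast, for Col2a1 and Col5a2, and for up to 2 others per structural group with the highest mean. From each pathway list up to 4 genes with the largest t in stage 4 against stage 3 are named, and further list members named beside a count were chosen after their values were seen. The alternatives were other probe set rules, scalings, filters, moderation, array weights, a replicate block, marker levels as covariates and leaving out arrays. Figures were drawn with matplotlib 3.10.9.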

Additional observations from a re-analysis of the deposited data

Results flagged for a closer look

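In 14 of 164 groups of a gene and a stage, 1 array stood apart from the rest by Dixon's criterion, which chance meets in about 1 of 20 groups. E18 replicate 1, the array with the highest cartilage marker level, was high in Col9a1 (11.71, next 10.04), Col9a3 (12.15, next 10.62), Col11a2 (8.98, next 6.81) and Col27a1 (6.73, next 6.17). E20 replicate 1 and P9 replicate 2, both high in bone markers, were high in Col22a1, at 5.88 (next 4.36) and 7.11 (next 4.47). E20 replicate 1 also had the highest skeletal muscle level of the 27 arrays, 12.23, and an epidermal level of 11.98, and P9 replicate 2 had a skeletal muscle level of 9.57. Over the 27 arrays the skeletal muscle level ran from 4.55 to 12.23. P5 replicate 2, high in epidermal markers, was high in Col7a1 (8.87, next 6.92). The part of these cell types in the levels was not tested. P2 replicate 3 was high in Col24a1 (6.79, next 3.78), P15 replicate 1 in Col17a1 (9.36, next 8.60) and P20 replicate 1 in Col4a6 (8.10, next 4.05), while P20 replicate 1 was low in Col16a1 (5.80, next 6.84). Of the P25 arrays, replicate 3 was low in Col15a1 (8.22, next 9.38) and Col6a2 (7.31, next 8.92), and replicate 2 in Col3a1 (11.70, next 12.37).

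The slope over P9 to P25 differed from that over E18 to P5 by the test of the difference in 8 genes. The differences were -0.35 log2 units a day for Col15a1, -0.30 for Col6a6, -0.28 for Col5a2, -0.18 for Col5a3, -0.16 for Col1a1, -0.16 for Col3a1, 0.38 for Col2a1 and 0.43 for Col9a1.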

How the results depend on the processing

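Of 1963 refits of 48 single-gene changes, 1819 kept direction and side of the threshold, 143 kept the direction but not the call, and 1 turned: with the fibroblast marker level as a covariate Col3a1 was at 0.091 ± 0.177 from stage 1 to stage 4 (adjusted p = 0.735). For each change 27 refits left out 1 array, and 13 or 14 used another setting. Leaving out an array outside the contrast cannot move the change itself, so part of this agreement was fixed in advance. The fibroblast covariate left 9 of 24 calls in the F test, 4 of 14 from stage 3 to stage 4, 16 of 30 from stage 1 to stage 4, 0 of 2 in the steps, 6 of 15 in the gland slope and 1 of 8 in the slope difference, and the cause was not tested. The share of all probe sets that kept a call in that fit was not counted. Fitting only the ages compared gave 9 calls from stage 3 to stage 4, with fewer arrays behind the spread. From stage 2 to stage 3, with 0 calls, 2 were made with the mean of all probe sets, with low probe sets left out or with array weights, and 1 with arrays centred on their medians or without E18 replicate 1 and E20 replicate 1. The steps, with 2 calls, gave 4 with the mean of all probe sets, low probe sets left out or array weights, 1 with centred arrays and 0 with the replicate block. Array weights gave 5 calls in the head slope in place of 3. Alternatives chosen after seeing the data gave, from stage 2 to stage 3, 1 call with bone markers as a covariate and 2 without the 4 arrays highest in bone markers, and in the steps 4, 5 and, with skeletal muscle markers, 0. Leaving out single arrays gave 22 to 25 calls in the F test, 3 to 6 from stage 1 to 2, 0 to 1 from stage 2 to 3, 10 to 16 from stage 3 to 4, 27 to 31 from stage 1 to 4, 0 to 4 in the steps, 3 to 4 and 12 to 17 in the head and gland slopes and 5 to 11 in their difference, lowest without P5 replicate 2. Deviations of same-numbered arrays correlated at -0.108 to 0.459 (median 0.014) over 108 pairs. Over 216 pairs of different number the range was -0.279 to 0.141 (median -0.009). The medians were both near zero, but the highest same-number correlation lay above all those of different number. Whether the numbers pair some samples is therefore not settled, and the main fit used no pairing. The replicate block gave 23, 4, 0, 14, 31, 0, 3, 15 and 8 calls in the same order. Of the 41 genes, 13 had a mean below that of the median probe set, 6.07, where a change is hard to see.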
